A study of Mus musculus with 8 samples.

Results

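The regions described here were 925 peaks of PU.1 in a murine acute myeloid leukaemia (AML) line that carried inducible wild-type PU.1. Each overlapped a CEBPA peak, and neither factor had an overlapping peak in a separate empty-vector line. The words new and gained stand for such differences between lines, as no change over time was followed. They were selected on the peak calls themselves. A region is a PU.1 peak of the line with wild-type PU.1 that overlapped, by 1 bp or more, no PU.1 peak and no CEBPA peak of the empty-vector line, but overlapped a CEBPA peak of its own line. The 925 regions were 5.90% of the 15683 PU.1 peaks in that line (exact 95% interval 5.53 to 6.28%) and 7.28% of the 12714 PU.1 peaks that were new (6.83 to 7.74%).

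The data came from X18.1.1, a line from a radiation-induced murine AML, in which one copy of Pu.1 is deleted and the remaining copy encodes a mutant protein, which lacks part of its PEST domain and has an amino acid changed in its DNA-binding domain. Cells were transduced with an MSCV retrovirus that carried puromycin resistance and either no insert (EV, here PU.1−) or PuER, which is wild-type PU.1 fused to an oestrogen receptor domain (here PU.1+), and each was studied as a single clonal line from limiting dilution. Both lines received 100 nM 4-hydroxytamoxifen (OHT), the ligand of the receptor domain, for 2 h, so OHT was common to both groups and the PU.1 peaks of the PU.1− line are those of the mutant protein. By immunoblot the paper also detected the mutant protein in the PuER line, so PU.1 peaks there may come from either protein. ChIP-Seq sequences the DNA that an antibody pulls down with a protein, and the deposited data were peak positions for PU.1 and CEBPA from 1 library per line for each antibody, without replicates. A peak missing from a list may lie just under the calling threshold, the read depth behind each list is unknown, and a clone and its construct cannot be told apart. For PU.1 there were 15683 peaks in the PuER line and 5288 in the EV line, and for CEBPA 20583 and 26119, respectively. All peaks were 400 bp wide. The confidence intervals given throughout cover counting error only.

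PU.1 is an ETS family transcription factor that binds purine-rich DNA with a GGAA core and is required for the development of macrophages, granulocytes and B cells. CEBPA is a basic leucine zipper factor that binds as a dimer to a palindrome of TTGC and GCAA and is required for the step from common myeloid progenitors to granulocyte and monocyte progenitors. The pair meet at many enhancers of macrophage genes, where binding of one factor can open chromatin for other factors.

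Some of these regions held a site for each factor. The 5 stretches below are shown because they hold both an ETS site (GGAAGT on either strand) and a CEBP site (TTGCNNAA on either strand) in their central 200 bp and were assigned to a gene of the lists used below. They are among those with the closest PU.1 and CEBPA centres of such regions, 1 for each gene. Each is the 200 bp around the PU.1 peak centre in GRCm38 (mm10), 5′ to 3′ on the + strand, with the exact ETS and CEBP sites in capitals.
Syk (chr13:52615092-52615291, + strand): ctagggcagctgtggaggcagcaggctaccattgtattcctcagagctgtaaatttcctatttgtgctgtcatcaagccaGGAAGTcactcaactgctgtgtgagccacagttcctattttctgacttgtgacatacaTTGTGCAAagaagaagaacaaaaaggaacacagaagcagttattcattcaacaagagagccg
Mitf (chr6:97995870-97996069, + strand): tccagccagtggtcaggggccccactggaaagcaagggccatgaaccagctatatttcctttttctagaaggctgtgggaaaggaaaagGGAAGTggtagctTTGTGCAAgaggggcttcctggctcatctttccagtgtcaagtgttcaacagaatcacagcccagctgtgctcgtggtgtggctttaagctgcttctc
Pik3cg (chr12:32199466-32199665, + strand): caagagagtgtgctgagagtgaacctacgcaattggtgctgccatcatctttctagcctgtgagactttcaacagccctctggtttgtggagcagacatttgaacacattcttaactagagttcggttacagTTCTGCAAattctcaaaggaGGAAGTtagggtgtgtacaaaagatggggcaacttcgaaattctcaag
Ccr3 (chr9:124037807-124038006, + strand): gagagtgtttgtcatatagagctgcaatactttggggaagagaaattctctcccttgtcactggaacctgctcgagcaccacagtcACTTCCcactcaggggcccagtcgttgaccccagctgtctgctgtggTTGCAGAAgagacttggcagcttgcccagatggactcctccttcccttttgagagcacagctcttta
Mcl1 (chr3:95653656-95653855, + strand): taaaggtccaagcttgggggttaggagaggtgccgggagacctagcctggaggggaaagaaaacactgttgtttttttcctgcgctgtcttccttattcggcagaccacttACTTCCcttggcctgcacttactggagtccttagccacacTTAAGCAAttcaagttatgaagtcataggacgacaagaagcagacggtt
Syk encodes a tyrosine kinase that acts below Fc receptors and integrins, and its region lay in an intron with the centres of the PU.1 and CEBPA peaks 2 bp apart. Mitf encodes a transcription factor of macrophages and osteoclasts, and its region was also intronic with centres 2 bp apart. Pik3cg, the gamma catalytic subunit of PI3-kinase, had its region in an intron, 1443 bp from the nearest start. The regions of Ccr3, a chemokine receptor, and Mcl1, an anti-apoptotic member of the BCL2 family, were intergenic, 15935 bp and 5032 bp from the starts of these genes.

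Other regions had an ETS site and no CEBP site. The 4 stretches below are shown because GGAAGT was present within the 80 bp at the middle of the PU.1 peak while neither the 400 bp of the PU.1 peak nor those of its CEBPA peak held TTGCNNAA, although a CEBPA peak was called there. Each is the 120 bp around the PU.1 centre, on the same build, with ETS sites in capitals.
Fcgr2b (chr1:171006469-171006588, + strand): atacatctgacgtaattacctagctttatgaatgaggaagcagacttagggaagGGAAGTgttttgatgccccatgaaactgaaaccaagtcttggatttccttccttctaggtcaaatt
Tpd52 (chr3:8969641-8969760, + strand): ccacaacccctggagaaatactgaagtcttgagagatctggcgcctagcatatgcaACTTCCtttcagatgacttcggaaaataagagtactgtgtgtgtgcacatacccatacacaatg
Vav1 (chr17:57347067-57347186, + strand): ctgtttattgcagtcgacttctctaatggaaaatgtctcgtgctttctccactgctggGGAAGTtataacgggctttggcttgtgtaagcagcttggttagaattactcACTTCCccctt
Ctsb (chr14:63129155-63129274, + strand): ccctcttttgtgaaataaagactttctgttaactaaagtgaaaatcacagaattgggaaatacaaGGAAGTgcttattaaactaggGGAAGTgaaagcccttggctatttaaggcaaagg
The centres of the PU.1 and CEBPA peaks were 3 to 6 bp apart in these 4 regions. The first lies in the cluster of low-affinity Fc receptor genes between Fcgr2b and Fcgr4. The nearest start to it was that of Fcgr4, at 12391 bp, and the Fcgr2b start was 29982 bp away. Tpd52 encodes a protein of vesicle traffic, Vav1 a guanine nucleotide exchange factor of haematopoietic cells and Ctsb the lysosomal protease cathepsin B. The Vav1 region was intergenic, 35231 bp from the nearest Vav1 start, and the nearest start to it was that of Adgre1, the gene of the macrophage receptor F4/80, at 11564 bp.

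The first comparison set these regions among the other PU.1 peaks of the PU.1+ line. A further 2027 new PU.1 peaks lay on CEBPA peaks that were called in both lines (new PU.1, retained CEBPA), and 9482 new PU.1 peaks had a CEBPA peak in neither line (new PU.1, no CEBPA). Of the 10407 new PU.1 peaks with no CEBPA peak in PU.1−, 8.89% were regions gaining both factors (8.35 to 9.45%). Among 1201 PU.1 peaks shared by the lines and without a CEBPA peak in PU.1−, 150 gained CEBPA, which was 12.5% (10.7 to 14.5%). These shares come from the calls that define the classes and are given without a test.

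**Figure D1:**
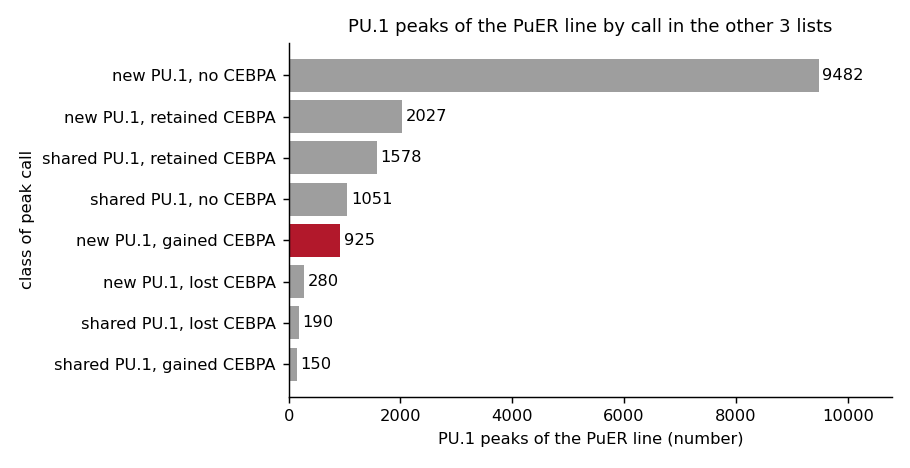
PU.1 peaks of the PuER (PU.1+) line by whether a PU.1 peak was also called in EV (shared) or not (new) and by the CEBPA peaks that overlapped them; bars are numbers of peaks and the 925 regions gaining both factors are in red. The class of new PU.1 peaks without CEBPA, at 9482 peaks, is the largest of the 8.

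The 925 regions met 927 CEBPA peaks, since 2 regions met a pair of them. Of the 927, 909 overlapped no CEBPA peak of the PU.1− line, and 18 touched one that lay beside the region. Some peaks lay close to the edges of the rule. There were 47 regions with a PU.1− CEBPA centre 400 to under 600 bp away, just outside overlap, while 109 new PU.1 peaks with CEBPA in PU.1+ had one 300 to under 400 bp away and were left out. Regions with a CEBPA centre 300 to under 400 bp away, just inside the rule, numbered 44, and 103 new PU.1 peaks had one 400 to under 500 bp away and were left out. The median distance from a region to the nearest CEBPA peak of PU.1− was 13188 bp and that to the nearest PU.1 peak of PU.1− was 68269 bp.

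The PU.1 and CEBPA peaks of a region were close to concentric. Their centres were a median of 46 bp apart (quartiles 19 and 89 bp), and 53.6% of regions had them within 50 bp (50.3 to 56.9%). At new PU.1 peaks with retained CEBPA the median was 59 bp with 43.9% within 50 bp (41.7 to 46.1%), and at shared PU.1 peaks with retained CEBPA it was 45 bp with 53.7% within 50 bp (51.2 to 56.2%). The rule requires overlap, so any such peak has its centres under 400 bp apart.

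**Figure D2:**
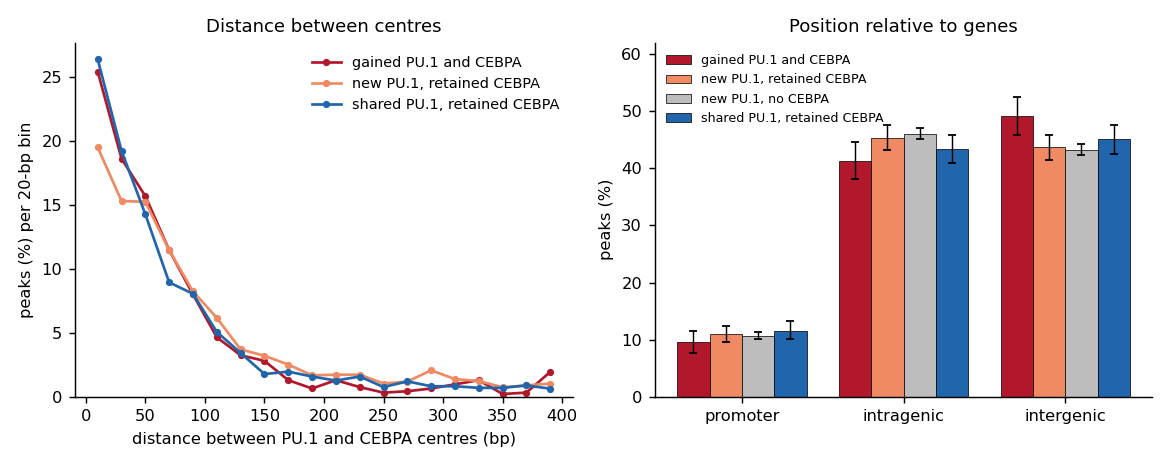
Left, distance in bp between the centres of the PU.1 peak and the nearest overlapping CEBPA peak (x axis) against the percentage of peaks in each 20-bp bin (y axis), for 3 classes; 26.5% of the regions gaining both factors lay within 20 bp. Right, percentage of peaks at promoters, inside genes and between genes, with exact 95% intervals as error bars; the regions gaining both stand at 49.2% between genes.

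The next comparison asked whether the DNA of the regions held the sites of both factors. Sequence took no part in the selection. ETS sites were found in the central 80 bp around the PU.1 centre in 368 regions, 39.8% (36.6 to 43.0%), against 4.54% of flanking windows of the same length 2000 bp to either side. GAGGAAGT, the PU.1-type site with a purine-rich start, was found in 12.5% (10.5 to 14.8%) against 0.432% of flanks. The ETS1-type sites CAGGAAGT and CCGGAAGT together were in 3.89% against 0.595% of flanks. CEBP sites were in 12.8% of the PU.1-centred windows (10.7 to 15.1%) against 4.0% of flanks.

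Each factor's site was more frequent under its own peak. Around the CEBPA centres of the same regions, CEBP sites were in 25.1% (22.4 to 28.1%, 233 of 927 peaks) against 3.61% of flanks, and ETS sites in 22.4% (19.8 to 25.3%) against 5.23%. Where the centres were at least 20 bp apart and the region held 1 ETS site, that site was nearer the PU.1 centre in 194 regions and nearer the CEBPA centre in 70. A single CEBP site was nearer the PU.1 centre in 60 and nearer the CEBPA centre in 173. The PU.1-type site was nearer the PU.1 centre in 81.1% (72.5 to 87.9%, 90 of 111). New PU.1 peaks with retained CEBPA had like shares, 72.1% for ETS (68.5 to 75.4%) and 22% for CEBP (19 to 25.3%), against 73.5% (67.7 to 78.7%) and 25.8% (20.3 to 31.9%) in the regions gaining both.

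**Figure D3:**
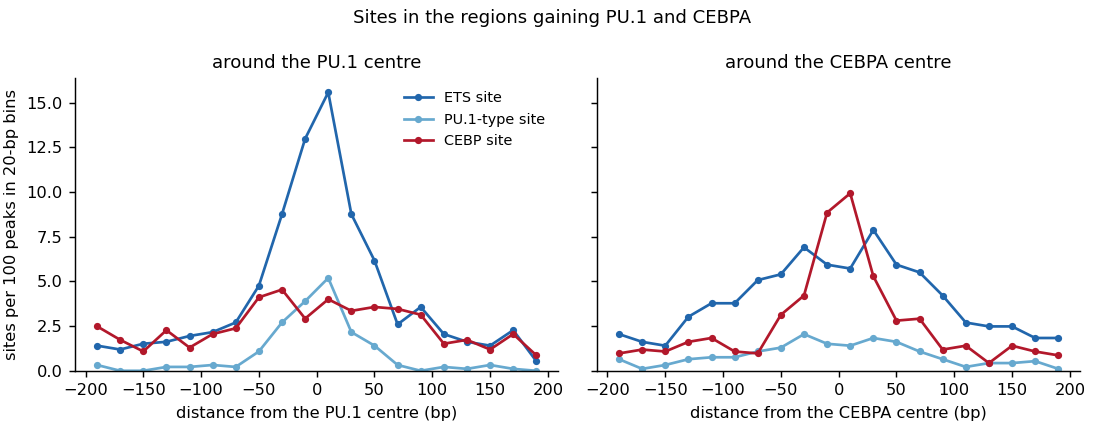
Sites per 100 peaks in 20-bp bins against distance in bp from the PU.1 centre (left, 925 peaks) and from the CEBPA centre (right, 927 peaks) of the regions gaining both factors, without error bars. ETS sites peak at 15.6 per 100 at the PU.1 centre, while CEBP sites peak at 9.92 per 100 at the CEBPA centre and are lower and broader around the PU.1 centre, with at most 4.54 per 100 in a bin.

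Read over the PU.1 peak and its CEBPA peak together, 256 regions (27.7%, 24.8 to 30.7%) held at least 1 site of each kind. ETS without CEBP was the commonest state, in 308 regions (33.3%, 30.3 to 36.4%), and CEBP without ETS was found in 150 (16.2%, 13.9 to 18.8%). Neither exact site was present in 211 regions (22.8%, 20.1 to 25.7%). Such wide stretches often hold a site away from peaks. Flanking windows of 400 bp around the PU.1 centres held an ETS site in 22% and a CEBP site in 16.9%. No flank share was computed for the combinations. Whether the sites of both kinds met more often than independent sites would was not tested. At new PU.1 peaks with retained CEBPA, CEBP without ETS was in 22.6% (20.8 to 24.5%) and neither in 18% (16.3 to 19.7%). Both were in 32.0% of that class and ETS without CEBP in 27.4%. Shared PU.1 peaks with retained CEBPA held both in 31.9%, ETS alone in 36.2%, CEBP alone in 19.2% and neither in 12.6%. ETS without CEBP as the commonest state was therefore not particular to the regions. In the 256 regions with both, the nearest pair was separated by a median of 55.5 bp, and 21 of them had a gap of 0 to 10 bp.

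CEBP sites were less frequent at the CEBPA peaks of these regions than in the 4 other sets of CEBPA peaks. They were found at 25.1% of the CEBPA peaks of these regions, but at 36.6% (34.1 to 39.2%) of the 1408 CEBPA peaks that were also new in PU.1+ and overlapped no PU.1 peak of either line. The difference was -11.4 percentage points (95% interval -15.1 to -7.64, and -17.8 to -4.82 when widened by the Bonferroni rule for the 70 comparisons of sites made here). Against retained CEBPA peaks at new PU.1 peaks, which held a CEBP site in 34.7% (32.6 to 36.8%), the difference was -9.55 points (-13.0 to -6.01). Retained CEBPA peaks at shared PU.1 peaks had 32.4% (30.1 to 34.8%) and a difference of -7.29 points (-10.9 to -3.62). The 13502 retained CEBPA peaks away from PU.1 had 41.1% (40.3 to 42.0%). All 4 differences kept their sign within the widened interval. The CEBPA peaks gained with PU.1 therefore held the canonical site least often of the 5 sets, though still above their flanks.

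ETS sites at the CEBPA centre were more frequent than in 3 of the 4 other sets. They were in 22.4% of the CEBPA peaks of these regions, in 7.53% (6.20 to 9.03%) of the new CEBPA peaks elsewhere, and in 17.0% (15.4 to 18.7%) of retained CEBPA peaks at new PU.1 peaks. The difference was 14.9 points (11.9 to 18) from the first and 5.42 points (2.34 to 8.63) from the second, and both widened intervals lacked 0. The first set was chosen to overlap no PU.1 peak, so its low share of ETS sites goes with the selection. The second comparison was not matched for the distance between centres, whose median was shorter in the regions. Retained CEBPA peaks away from PU.1, likewise chosen to overlap no PU.1 peak, held ETS sites in 6.80%. Retained CEBPA peaks at shared PU.1 peaks held them in 25.5% (23.4 to 27.7%), from which the regions differed by -3.08 points with an interval that held 0 (-6.47 to 0.41), so a raised share of ETS sites was not particular to the regions. The share of ETS sites at the CEBPA centre varied with the distance between the centres. They were in 32.7% (26.8 to 38.9%) of the 245 regions with centres within 20 bp and in 7.94% (4.51 to 12.8%) of the 189 with centres over 100 bp apart. CEBP sites at the CEBPA centre were in 22.4% (17.4 to 28.2%) and 27.5% (21.3 to 34.5%) of these, respectively, and between those values in the regions at the distances in between. ETS sites at the PU.1 centre were in 36.7% (30.7 to 43.1%) of the former and 43.4% (36.2 to 50.8%) of the latter. A window at a more distant CEBPA centre leaves out sites at the PU.1 centre by construction. New PU.1 peaks with retained CEBPA had ETS sites at the CEBPA centre in 32.9% within 20 bp and 6.09% over 100 bp. The fall was therefore not particular to the regions.

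A ranking of all 8-base sequences by a standardised score of their excess over the flanks did not start from these motifs. At the PU.1 centres of the regions the top sequence was AAGAGGAA, in 17.5% of regions and 1.35% of flanks, and next came ACTTCCTC, the reverse complement of the PU.1-type site, in 12.5%. Below them were AGAGGAAG in 15.2%, AAAGAGGA in 12.2% and AGGAAGTG in 11.7%. At the CEBPA centres of the same regions the first 4 were again PU.1-like, led by AAGAGGAA in 9.39% against 1.35% of flanks. The next in rank, TTGAGCAA, was a CEBP site, with 4.42% against 0.108% of flanks. At new CEBPA peaks away from PU.1 the first was TTGCACAA, a CEBP site, in 10.4% against 0.178% of flanks.

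At the PU.1 centre the regions also differed from the other new PU.1 peaks. ETS sites were more frequent than at new PU.1 peaks with retained CEBPA, where 32.4% held one, by 7.42 points (3.69 to 11.2). They were less frequent than at new PU.1 peaks without CEBPA, where 45.6% did, with a difference of -5.83 points (-9.09 to -2.49). CEBP sites were at 12.8% here and at 3.72% (3.35 to 4.12%) of new PU.1 peaks without CEBPA, which was close to the 3.23% of their flanks, a difference of 9.03 points (7.0 to 11.4). The regions were chosen to have a CEBPA peak and that class to have none, so this difference goes with the selection. All 3 widened intervals lacked 0. In the central 200 bp the first of these differences was smaller, at 4.63 points (0.740 to 8.49), and its widened interval held 0 (-2.08 to 11.3). In the central 80 bp, new PU.1 peaks with retained CEBPA held CEBP sites in 15.6%, a difference of -2.83 points (-5.42 to -0.075, widened -7.21 to 2.05). Shared PU.1 peaks with retained CEBPA held them in 18.3%, a difference of -5.49 points (-8.31 to -2.55, widened -10.3 to -0.321). A raised CEBP share at the PU.1 centre was therefore not particular to the regions.

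**Figure D4:**
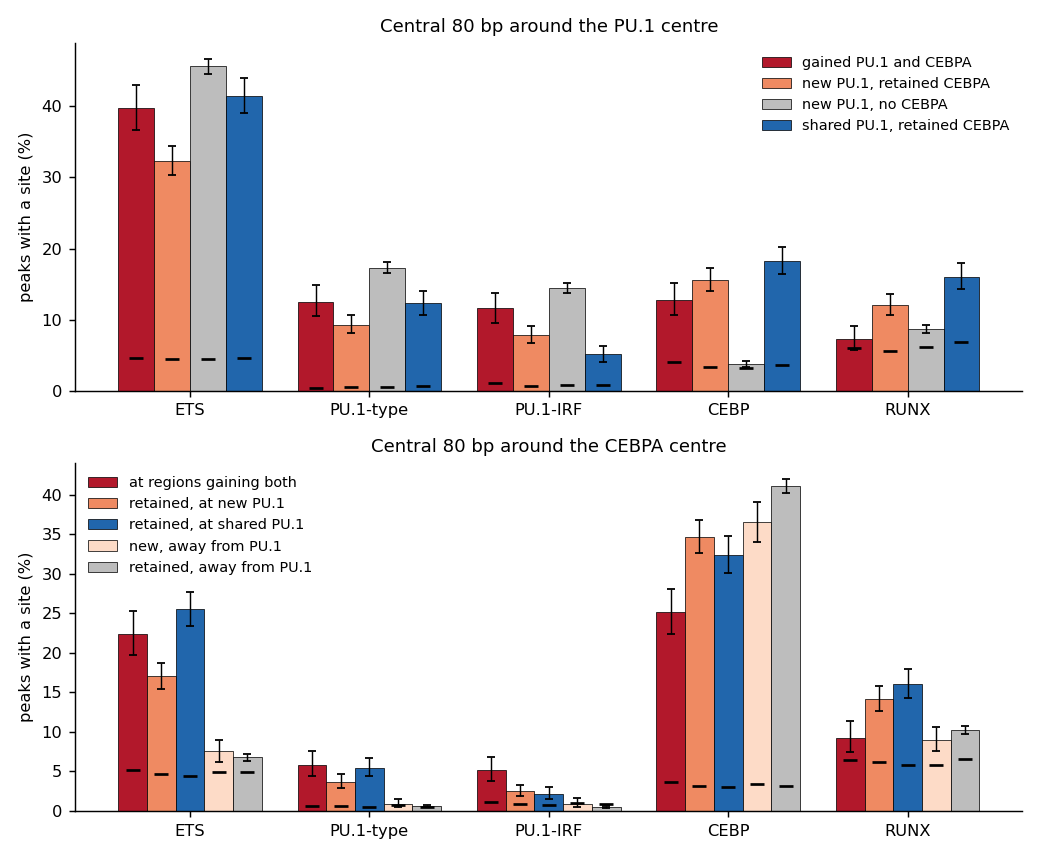
Percentage of peaks with at least 1 site in the central 80 bp around the PU.1 centre (top, 4 classes of PU.1 peak) and the CEBPA centre (bottom, 5 sets of CEBPA peak), with exact 95% intervals as error bars and the share of flanking windows as a short black line. The regions gaining both factors, in red, have 25.1% CEBP sites at the CEBPA centre, below the other 4 sets, and 22.4% ETS sites.

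RUNX and PU.1-IRF sites differed in frequency between the regions and shared PU.1 peaks with retained CEBPA. RUNX factors are partners of PU.1 and CEBPA in myeloid progenitors, and their site TGTGGT was in 7.24% of the regions (5.66 to 9.11%) and 6.0% of flanks, but in 16.0% (14.3 to 17.9%) of shared PU.1 peaks with retained CEBPA. The difference was -8.79 points (-11.2 to -6.26, widened -12.9 to -4.31). Against new PU.1 peaks with retained CEBPA, of which 12.1% (10.7 to 13.6%) had it, the difference was -4.84 points (-6.96 to -2.55). New PU.1 peaks without CEBPA had it in 8.68% (8.12 to 9.26%), a difference of -1.44 points with an interval that held 0 (-3.05 to 0.50), so the low share was not particular to the regions. In the central 200 bp the RUNX site was in 21.1% of the regions (18.5 to 23.9%) against 14.5% of flanks. The PU.1-IRF composite, GGAA and GAAA separated by any pair of bases, is bound by PU.1 together with IRF4 or IRF8. It was in 11.6% of the regions (9.58 to 13.8%) against 1.03% of flanks, and in 5.13% (4.10 to 6.34%) of shared PU.1 peaks with retained CEBPA, a difference of 6.43 points (4.18 to 8.86, widened 2.62 to 10.8). New PU.1 peaks without CEBPA had it in 14.5% (13.8 to 15.2%), so the composite was not particular to the regions gaining CEBPA.

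Further motifs gave small shares. The AP-1 site TGANTCA was in 4.22% of the regions (3.02 to 5.72%) against 2.49% of flanks. The hybrid CEBP-ATF site TTGCATCA was in 1.19% (0.595 to 2.12%) against 0.649%, and in 0.243% (0.154 to 0.364%) of new PU.1 peaks without CEBPA. The GC box GGGCGG was in 0.432% (0.118 to 1.10%) against 1.30%, and the GATA site AGATAA was in 3.46% (2.38 to 4.85%) against 4.49%. Of the 70 differences computed over 10 motifs, 40 had a 95% interval without 0 and 29 had a widened interval without 0. A match is a description of the sequence and does not show that a protein was bound to it.

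The regions lay mostly away from promoters. Of the 925, 88 had a protein-coding transcript start within 1000 bp (9.51%, 7.70 to 11.6%), 382 were elsewhere inside such a gene (41.3%, 38.1 to 44.5%) and 455 were between genes (49.2%, 45.9 to 52.5%). The share between genes was 5.53 points higher (1.65 to 9.40) than the 43.7% of new PU.1 peaks with retained CEBPA and 5.94 points higher (2.58 to 9.31) than the 43.3% of those without CEBPA. The promoter share differed from the 11% and 10.7% of these classes within counting error, with differences of -1.49 points (-3.73 to 0.944) and -1.17 points (-3.01 to 0.979). These intervals were not widened for the number of positions compared. The median distance to the nearest start was 15503 bp. Median GC content over the peak was 44.5%, and 15.4% of centres (13.1 to 17.8%) lay in annotated repeats.

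Most regions had no other within 10 kb. A second region lay within 10 kb of 61 of them, 6.59% (5.08 to 8.39%), and a clustering at this distance left 864 single regions, 24 pairs, 3 groups of 3 and 1 group of 4. As a description, a region lay within the same distance of 4.44% of new PU.1 peaks with retained CEBPA (3.59 to 5.43%), 3.6% of those without CEBPA (3.23 to 3.99%) and 3.80% of shared PU.1 peaks with retained CEBPA (2.91 to 4.87%). The group of 4 lay between Chst3 and Psap at chr10:60260569-60273764, where Psap encodes prosaposin, the precursor of activators of lysosomal lipid breakdown. A group of 3 lay at chr10:87830045-87832584, about 26 to 28 kb upstream of Igf1, the gene of a growth factor that macrophages secrete. Another was at chr2:5769644-5772928, beyond the 3′ end of Cdc123, and the last, at chr12:98368826-98375920, was assigned to no gene.

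Regions were next assigned to protein-coding genes. A promoter region went to the gene of that promoter, a region inside a gene to that gene, and any other to the nearest gene on each side if its edge was within 50 kb. Of 21924 genes, 812 received a region, and this share of all genes, 3.70%, is the background against which the lists below are read. Most of the 925 regions went to 1 gene (614) or a pair (145), and 166 went to none. More than 1 region was assigned to 77 genes and 3 or more to 12. Psap, Tg and Gm20388 had 4 each. Tg, the gene of thyroglobulin, contains the Sla gene, and Gm20388 is a locus model of several megabases that covers many other genes, so neither count speaks for the named gene alone. The other 9 with 3 regions were Asap1, Cdc123, Chst3, Dse, Fndc3a, Hdac4, Igf1, Irf2 and Trps1. Irf2, the gene of an interferon regulatory factor, had 2 regions in its introns and 1 beyond its end, each with an ETS and a CEBP site in the PU.1 peak. Hdac4, a histone deacetylase, had none with a CEBP site in its PU.1 or CEBPA peaks.

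Regions were assigned to signalling genes. Of 24 myeloid signalling kinases, phospholipases and adaptors, 8 received a region (33.3%, exact interval 15.6 to 55.3%), among them Pik3cg, Plek and Syk with 2 each and Lcp2, Pik3cd, Pik3r5 and Vav1 with 1. In the same list 23 genes had a new PU.1 peak without CEBPA, a class that reached 26.5% of all genes. Plek, which encodes pleckstrin, the major protein kinase C substrate of platelets and leukocytes, had a region at chr11:17002784-17003183, 15 bp from a transcript start with a pair of ETS sites in its central 80 bp and no CEBP site in its PU.1 or CEBPA peak. Lcp2, the adaptor SLP-76, had an intronic region with a PU.1-type site and centres 132 bp apart.

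Receptors of the innate response also received regions. Of 11 Fc receptor genes 4 received a region (36.4%, 10.9 to 69.2%), Fcgr1, Fcgr2b, Fcgr3 and Fcgr4, of which Fcgr2b and Fcgr4 shared the same one. The Fcgr3 region was 528 bp from the start of this activating receptor, with a CEBP site and no ETS site in the PU.1 peak. Of 12 Toll-like receptors 2 received one (16.7%, 2.09 to 48.4%). The Tlr8 region, chrX:167264102-167264501, was centred 3 bp from the start of the gene and had CEBP sites, of which 1 was in the central 80 bp, but no exact ETS site. The Tlr2 region, 2110 bp from the nearest start, had an ETS site and no CEBP site in either peak. Among 17 C-type lectin and scavenger receptors, 2 received a region (Clec4a1 and Scarb1, 11.8%, 1.46 to 36.4%). Among 15 chemokine and chemoattractant receptors 2 did (13.3%, 1.66 to 40.5%), Ccr3 with 2 regions, one of which was also the region of Ccr2. The intervals of the Toll-like, lectin and chemokine receptor lists each held the 3.70% of all genes.

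The single integrin of 13 with a region (7.69%, 0.195 to 36.0%) was Itgax, which encodes CD11c. Its region, chr7:128133678-128134077, was 928 bp from the nearest annotated start, over an untranslated exon, and was the only one to hold 3 PU.1-type sites in the central 80 bp. This region was singled out after its values were seen. Of 21 cytokine and growth factor receptors 2 received a region (9.52%, 1.17 to 30.4%). The intervals of the integrin and cytokine receptor lists each held the 3.70% of all genes. That of Csf2ra, the alpha chain of the GM-CSF receptor, was 8 bp from the start and held neither exact site in the PU.1 peak, and that of Il17ra was intronic.

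Granule and lysosomal proteins had regions at 7 of 23 genes (30.4%, 13.2 to 52.9%). These were the cathepsin genes Ctsb, Ctsc, Ctsh, Ctsk, Ctss and Ctsz and Mpeg1, which encodes the pore-forming protein perforin-2. Ctsc, which activates granule serine proteases, had 2 regions, 735 bp and 6369 bp upstream of its start, and Ctsk and Ctss shared a region that lay between them. The Mpeg1 region, chr19:12460877-12461276, was 298 bp downstream of the start, with a CEBP site in its central 80 bp and no ETS site. Of the 7 genes of the NADPH oxidase, which makes superoxide in phagocytes, 2 received a region (Cyba and Rac2, 28.6%, 3.67 to 71.0%). This interval held the 3.70% of all genes.

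**Figure D5:**
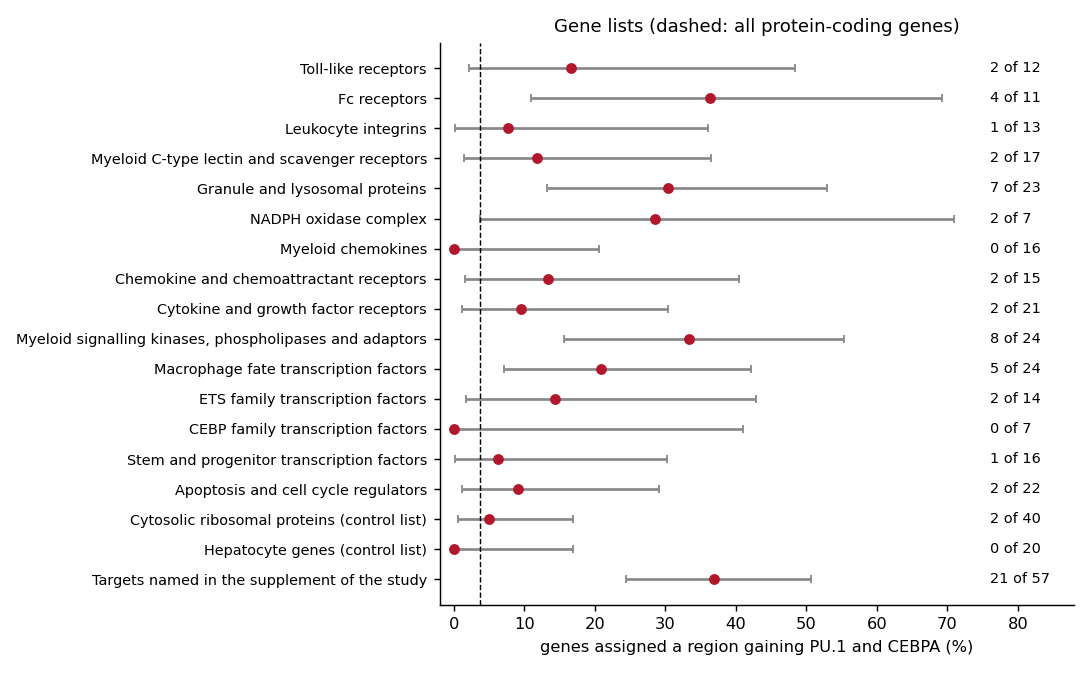
Percentage of the genes in each list that were assigned a region gaining PU.1 and CEBPA (points, with exact 95% intervals as bars and the counts at the right); the dashed line is the 3.70% of all protein-coding genes. Fc receptors (36.4%), signalling genes (33.3%) and granule and lysosomal proteins (30.4%) stand to the right of the line. Hepatocyte genes, myeloid chemokines and CEBP factors are at 0, with intervals up to 16.8%, 20.6% and 41.0% that hold the line. Other classes of PU.1 peak, not drawn, also exceeded their own share of all genes in the Fc receptor, signalling and granule lists.

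Transcription factor genes received regions as well. Of 24 factors of macrophage fate 5 did (20.8%, 7.13 to 42.2%), namely Irf5, Jdp2, Mitf, Nr4a1 and Zeb2. New and shared PU.1 peaks with retained CEBPA were each at 37.5% of this list, against 7.70% and 6.26% of all genes, respectively. New PU.1 peaks without CEBPA were at 70.8%, against 26.5% of all genes, so a raised share was not particular to the regions. The region of Nr4a1, an orphan nuclear receptor gene, was 1448 bp upstream and held 2 ETS sites in its centre. Of 14 ETS factors 2 received a region (14.3%, 1.78 to 42.8%), both in introns, of Elf1 and Etv6. Of 16 stem and progenitor factors only Myc did (6.25%, 0.158 to 30.2%), 12355 bp downstream of its start. None of the 7 CEBP factors had one, which allows a share of up to 41.0% (exact 95% limit) and so holds the 3.70% of all genes. Of 22 apoptosis and cell cycle genes 2 did (Bcl2 in an intron and Mcl1, 9.09%, 1.12 to 29.2%). The intervals of the ETS, stem and progenitor, and apoptosis lists each held the 3.70% of all genes. None of 16 myeloid chemokines had a region, which with 0 of 16 allows a share of up to 20.6% (exact 95% limit). In the control lists 2 of 40 cytosolic ribosomal protein genes (Rpl18 and Rps9) and 0 of 20 hepatocyte genes received a region. Their intervals, 0.611 to 16.9% and up to 16.8%, each held the 3.70% of all genes, as did that of the chemokines.

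Of the 57 target genes that the study named in its supplement, 21 received a region (36.8%, 24.4 to 50.7%). The study chose those genes on these samples, so this share is not independent evidence of a relation. Evi2a had 2 regions in this list, 52 bp and 686 bp from a start, with no ETS site in either PU.1 peak, and Snx20 had 1 at 5 bp from its start, with CEBP sites and no ETS site. The lists are small and genes within a list can be neighbours that share a region, so no test was made between lists. New PU.1 peaks without CEBPA reached more genes of the same lists, for example 17 of 23 granule and lysosomal genes and 46 of the 57 targets. Shared PU.1 peaks with retained CEBPA were at 45.5% of Fc receptor, 50% of signalling and 47.8% of granule genes, against 6.26% of all genes. For new PU.1 peaks with retained CEBPA these shares were 27.3%, 33.3% and 47.8%, against 7.70%. A raised share in these lists was therefore not particular to the regions.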

How the data were processed

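ChIP-Seq peak positions of PU.1 and CEBPA in the EV and PuER lines were used, 4 libraries of the 8 samples listed, with 1 per antibody and line. Samples of H3K27Ac and IgG are not analysed here. The authors mapped reads to mm10 (GRCm38) with Bowtie2 2.0.6 and called peaks with MACS2 2.0.10, as given in the submitters' processing notes. The deposited files hold peak intervals only (chromosome, start and end, all 400 bp wide), with no counts, heights or scores, so the calling threshold and depth are not given in the sources used here. Regions were chosen by overlap of at least 1 bp as stated above. The regions, motifs and gene lists were chosen with earlier results of these data known.

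Sequences came from GRCm38 (RefSeq) and gene models from GENCODE. Sites were exact matches on both strands in the central 80 bp of a peak, and flanks were windows centred 2000 bp to either side. PU.1-type and ETS1-type sites are also ETS sites. The 8-base sequences were ranked by the number of peaks minus the mean number of flanks (over both sides) holding them, divided by the square root of the sum of these numbers plus 1. Promoters lay within 1000 bp of a start, and genes were assigned within 50 kb. Shares carry exact Clopper-Pearson 95% intervals and differences of shares Newcombe intervals, called where they lack 0. Peaks of one library are not replicates of a condition. No p-value was computed. Named genes were those with 3 or more regions and list genes with a region, up to 4 per list with values. One gene that this rule names is not reported here. The steps were tested on simulated peaks and sequences. The alternatives changed the overlap rule, window, site definition (a scoring matrix), promoter width, gene distance and flank. Python 3.11.15, pandas 2.3.3, scipy 1.17.1 and pysam 0.24.0 were used.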

Additional observations from a re-analysis of the deposited data

How the results depend on the processing

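No paired analysis was possible because there was 1 library for each antibody and line. The 925 regions became 884 with a reciprocal overlap of 50%, 859 with centres within 100 bp, 813 with no PU.1− peak of either antibody within 1000 bp, and 908 when the CEBPA peak itself had to be new. None of these rules moved an ETS, PU.1-type, CEBP or promoter share outside its main interval. Wider windows moved the shares by construction. In the central 200 bp and the whole peak, ETS sites were in 52.4% and 58.8% of regions, PU.1-type sites in 15.7% and 17.0%, and CEBP sites in 35.1% and 41.6% of their CEBPA peaks. With a scoring matrix set so that 5% of flanks pass, ETS rose to 44.8% and CEBP to 36.8%, and the latter was still 13.6 points below new CEBPA peaks away from PU.1 (a difference of -13.6, interval -17.6 to -9.48). The promoter share was 5.95% at 500 bp, 17.3% at 2500 bp and 11.9% with transcripts of all biotypes. The share of genes with a region was 3.09% at 20 kb and 4.22% at 100 kb. Centres within 50 bp made up 57.0% under reciprocal overlap and 61.6% under the 100-bp rule, which select for closeness. In 18 recalculations of 3 differences (CEBP against new CEBPA peaks elsewhere, RUNX and PU.1-IRF against shared PU.1 peaks with retained CEBPA), chosen after seeing the data, each kept its sign and its interval without 0. With no depth, a peak absent from a list cannot be told from one just missed.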

Other observations

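The spelling of the CEBP sites differed as well, a pattern noticed in the data and not among the planned comparisons. Sites that carry a CG step inside the palindrome (TTGCGTAA, for example) were in 10 of the 233 CEBPA peaks with a CEBP site at regions gaining both factors, 4.29% (2.08 to 7.75%). They were in 17.7% (14.5 to 21.2%) of the 515 new CEBPA peaks with a site away from PU.1, a difference of -13.4 points (-17.4 to -8.79). Retained CEBPA peaks with a site had them in 11.4% (9.13 to 14.0%) at new PU.1 peaks, in 9.77% (7.34 to 12.7%) at shared PU.1 peaks and in 23.0% (21.9 to 24.2%) away from PU.1. Outside promoters the values were 4.76% (2.31 to 8.58%) at the regions and 17.2% (13.9 to 21%) at new CEBPA peaks away from PU.1, a difference of -12.5 points (-16.8 to -7.51).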
